A study of Homo sapiens with 10 samples.

Results

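The genes described here are 8 that encode transcription factors and one coactivator of kidney development: PAX2, PAX8, LHX1, SIX2, EYA1, SALL1, WT1 and EMX2. They were chosen by gene symbol, and all 8 are among the 18480 genes of each of the 2 deposited tables, with 1 probe set each. They were measured in HEK-293, a line derived from human embryonic kidney, on Affymetrix HuGene-1_0-st arrays of total RNA. Cells were transfected at 10 nM with LINC00324 siRNA 1, LINC00324 siRNA 2, LOC400043 siRNA 1, LOC400043 siRNA 2 or a scramble siRNA, with 2 arrays for each of the 5 groups. Every group carries a transfected small interfering RNA (siRNA), the scramble group too, and the labels name no untransfected cells. The labels call the 2 arrays of a group biological replicates, and their number limits the precision of every value.

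The mammalian kidney forms when the ureteric bud grows into the metanephric mesenchyme, where progenitor cells either renew themselves or condense into nephrons. PAX2, PAX8 and LHX1 mark the early renal lineage, SIX2, EYA1 and SALL1 the self-renewing progenitors, WT1 the mesenchyme and later the podocyte, and EMX2 the ureteric epithelium. HEK-293 is used as a cell line of embryonic kidney origin, although it is also known to express neuronal genes.

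LINC00324 and LOC400043 are long noncoding RNAs (lncRNAs). The authors deposited one table per lncRNA, with the 4 arrays of its siRNAs and the 2 scramble arrays, normalized separately. The same scramble arrays therefore have other values in the other table, by 0.39 (log2) for the mean of LHX1 and by at most 0.22 for the 7 other genes. Array values are log2 values made by RMA, in which a step of 1 is a doubling of signal. Positions are those of the authors' tables, whose genome build is not given in the sources. The value of a probe set also depends on how well its probes bind, so the levels of different genes are not ranked here. As a guide to background, 59 keratin-associated protein genes, which encode hair shaft proteins, had scramble means between 3.46 and 8.97 in the LINC00324 table, and 95% of them lay below 8.25. EYA1, SIX2 and SALL1 had scramble means above that percentile in both tables, and PAX2, PAX8, LHX1, WT1 and EMX2 lay within the range of the hair shaft genes. A signal in that range shows neither that a gene is expressed nor that it is silent.

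Of the siRNA targets, LINC00324 had values of 5.37 and 5.03 with LINC00324 siRNA 1, 5.24 and 5.60 with LINC00324 siRNA 2, and 5.79 and 5.80 with scramble. Every array of either siRNA had less signal than the 2 scramble arrays, but neither difference passed the test, at -0.60 (log2, limma adjusted p = 0.184) and -0.38 (adjusted p = 0.308). The 4 arrays of the LOC400043 siRNAs, between 5.42 and 5.47, also lay below the scramble arrays of their table, at 5.76 and 5.58. All these LINC00324 values lay below the median of the hair shaft genes (6.62 in the LINC00324 table, 6.5 in the LOC400043 table). Signal in that range does not show how far LINC00324 was silenced. No probe set of LOC400043 was found, and its level was not analysed here. How far LOC400043 was silenced is not known from these arrays. The median gene had 7.64 to 7.73 (log2) on the arrays of the LINC00324 table, against 7.53 to 7.62 on those of the LOC400043 table. The SD over genes of the difference between replicates was 0.24 for LINC00324 siRNA 1, 0.13 or 0.14 for the 3 other siRNAs and 0.19 for scramble.

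With the LINC00324 siRNAs none of the 8 genes passed the test, which was limma on all 18480 genes of the table with Benjamini-Hochberg adjustment and a threshold of 0.05. The test called 0.498% of all genes with siRNA 1 and 1.85% with siRNA 2. At an unadjusted p under 0.05, 1 of the 8 genes stood out with siRNA 1 (PAX2) and 1 with siRNA 2 (EMX2), against 13.2% and 15.9% of all genes. The median size of the difference from scramble, regardless of sign, was 0.137 (log2) over the 8 genes with siRNA 1, against 0.109 over all genes, and 0.087 with siRNA 2, against 0.104. The 95% intervals of the 16 differences reached from -0.57 to 0.59.

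**Figure D1:**
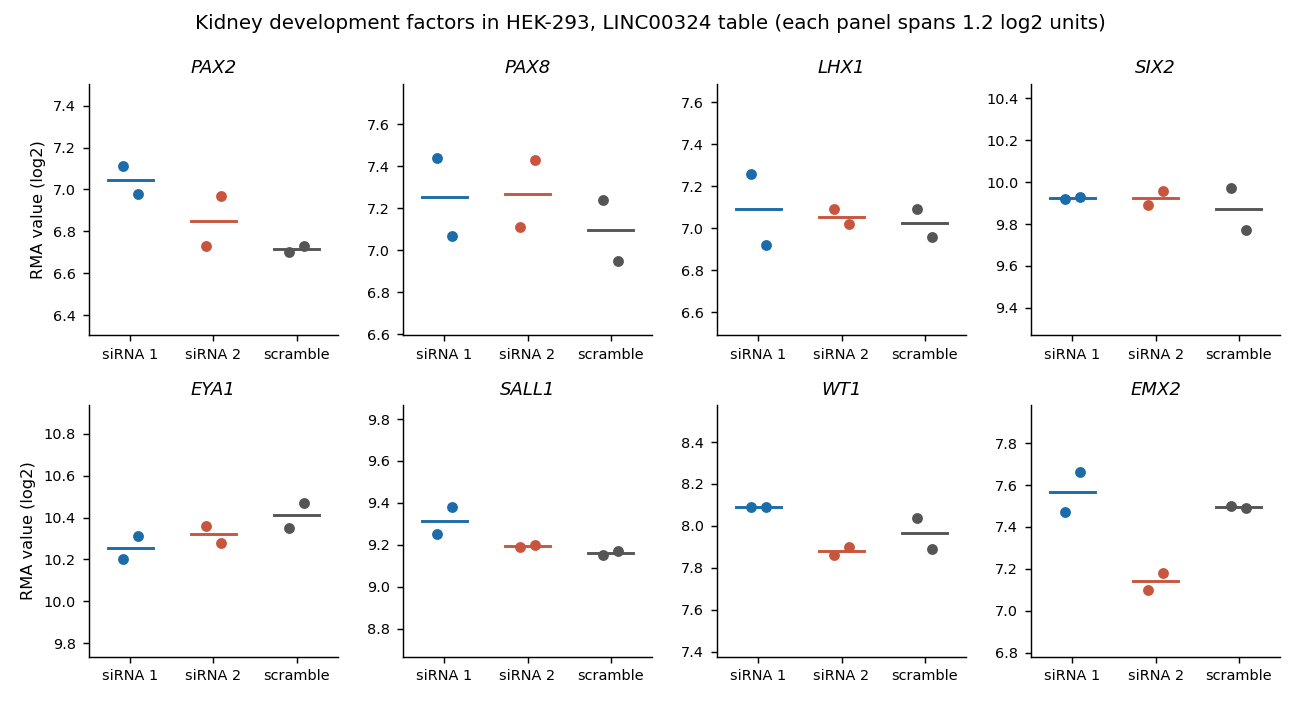
RMA value (log2) of each of the 8 genes on each of the 6 arrays of the LINC00324 table, by group (siRNA 1, siRNA 2, scramble). Points are arrays, horizontal lines are group means, and each panel spans the same height in log2. The EMX2 arrays of siRNA 2 (7.10 and 7.18) lie below the 4 others, and the PAX2 arrays of siRNA 1 (7.11 and 6.98) above the scramble arrays.

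PAX2 (probe set 7929840, chromosome 10, 102505332 to 102589698), a paired-box factor needed for the nephric duct and the mesenchyme, had values of 7.11 and 6.98 with LINC00324 siRNA 1, 6.73 and 6.97 with siRNA 2, and 6.70 and 6.73 with scramble. Both siRNA 1 arrays lay above both scramble arrays, and the siRNA 2 arrays overlapped with them. The difference of siRNA 1 from scramble was 0.33 (log2, SE 0.11, 95% interval 0.08 to 0.58), with a limma p of 0.0186 and an adjusted p of 0.258. PAX8 (8054740, chromosome 2, 113973574 to 114036498), which acts redundantly with PAX2 in the early renal lineage, had 7.44 and 7.07 with siRNA 1, 7.11 and 7.43 with siRNA 2, and 7.24 and 6.95 with scramble. Its replicates differed by 0.29 to 0.37 (log2), more than its group means did, and it had the largest residual SD of the 8 genes (0.23, larger than that of 92.8% of all genes). LHX1 (8006681, chromosome 17, 35294499 to 35300494), a LIM homeobox factor of the nephric duct and the early tubule, had 7.26 and 6.92 with siRNA 1, 7.09 and 7.02 with siRNA 2, and 7.09 and 6.96 with scramble. The 3 groups overlapped, and both differences from scramble were at most 0.07 (log2).

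SIX2 (8051949, chromosome 2, 45232321 to 45236542), the homeobox factor that keeps nephron progenitors undifferentiated, had values of 9.92 and 9.93 with LINC00324 siRNA 1, 9.89 and 9.96 with siRNA 2, and 9.97 and 9.77 with scramble. Both siRNAs lay inside the scramble range, with a difference of 0.06 (log2) and an interval of -0.16 to 0.29 for each. EYA1, a coactivator and phosphatase that binds SIX2, had 10.20 and 10.31 with siRNA 1, 10.36 and 10.28 with siRNA 2, and 10.35 and 10.47 with scramble. The siRNA 1 arrays lay below both scramble arrays, by -0.15 (log2, SE 0.09, limma adjusted p = 0.527) on average. SALL1, a zinc finger repressor of the progenitors that recruits the NuRD complex, had 9.25 and 9.38 with siRNA 1, 9.19 and 9.20 with siRNA 2, and 9.15 and 9.17 with scramble. All 4 siRNA arrays lay above both scramble arrays, but the differences of 0.15 (SE 0.08, adjusted p = 0.487) and 0.04 (SE 0.08, adjusted p = 0.900) did not pass the test.

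WT1 (7947363, chromosome 11, 32409321 to 32457087), the zinc finger factor of the Wilms tumour locus, had values of 8.09 and 8.09 with LINC00324 siRNA 1, 7.86 and 7.90 with siRNA 2, and 8.04 and 7.89 with scramble. The siRNA 1 arrays lay above the scramble range, the siRNA 2 arrays reached into it, and siRNA 1 had a difference of 0.12 (log2, SE 0.08, limma adjusted p = 0.604). EMX2 (7930857, chromosome 10, 119301956 to 119309057), a homeobox factor without which mice form no kidneys, had 7.47 and 7.66 with siRNA 1, 7.10 and 7.18 with siRNA 2, and 7.50 and 7.49 with scramble. The siRNA 2 arrays lay below all 4 others. Their difference from scramble was -0.35 (log2, SE 0.09, 95% interval -0.57 to -0.13), with a limma p of 0.00784 and an adjusted p of 0.124. In all, 3 of the 8 genes (PAX2, SALL1, WT1) lay above both scramble arrays with both arrays of siRNA 1 and 1 (EYA1) below, against 17.8% and 21.3% of all genes. For siRNA 2, 1 gene (SALL1) lay above and 1 (EMX2) below, against 22.3% and 27.4% of all genes.

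The 2 siRNAs share the lncRNA they are directed against, and their direct comparison leaves out the scramble arrays. None of the 8 genes passed that test (limma), in which 3.07% of all genes were called. EMX2 and WT1 had an unadjusted p under 0.05, as had 17.6% of all genes. EMX2 was higher with siRNA 1 than with siRNA 2 by 0.42 (log2, SE 0.09, interval 0.20 to 0.64, adjusted p = 0.0702). Without replicate 1 of siRNA 1 that difference was 0.51 with an adjusted p of 0.0455, and in the 5 fits without another array the adjusted p was between 0.122 and 0.443. WT1 differed by 0.20 (SE 0.08, adjusted p = 0.283). Of the 8 genes, 4 (PAX2, SALL1, WT1, EMX2) had both siRNA 1 arrays above both siRNA 2 arrays, against 24.3% of all genes, and 0 had them below, against 21.3%. For the mean of both siRNAs minus scramble, none of the 8 genes was called, against 0.476% of all genes, and 1 (PAX2) had an unadjusted p under 0.05.

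With the LOC400043 siRNAs 2 of the 8 genes passed the test, 1 with each siRNA. SALL1 was 1.21-fold higher with siRNA 1, narrowly past the threshold (limma adjusted p = 0.0455), a call that did not hold without any 1 array. EYA1 rose 1.38-fold with siRNA 2. Neither gene was called with the other siRNA, and both differed between the siRNAs when these were compared directly. The test called 11.5% of all genes with siRNA 1 and 21.7% with siRNA 2, 4.05% and 7.9% of them higher, so 1 call among 8 genes with either siRNA is not read as more than the background. At an unadjusted p under 0.05 there were 2 of the 8 genes with siRNA 1 (SALL1, WT1) and 1 with siRNA 2 (EYA1), against 27.1% and 33.8% of all genes. The LOC400043 comparisons use the same scramble arrays as the LINC00324 comparisons, so the 2 sets of values are given side by side without a count of shared directions.

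**Figure D2:**
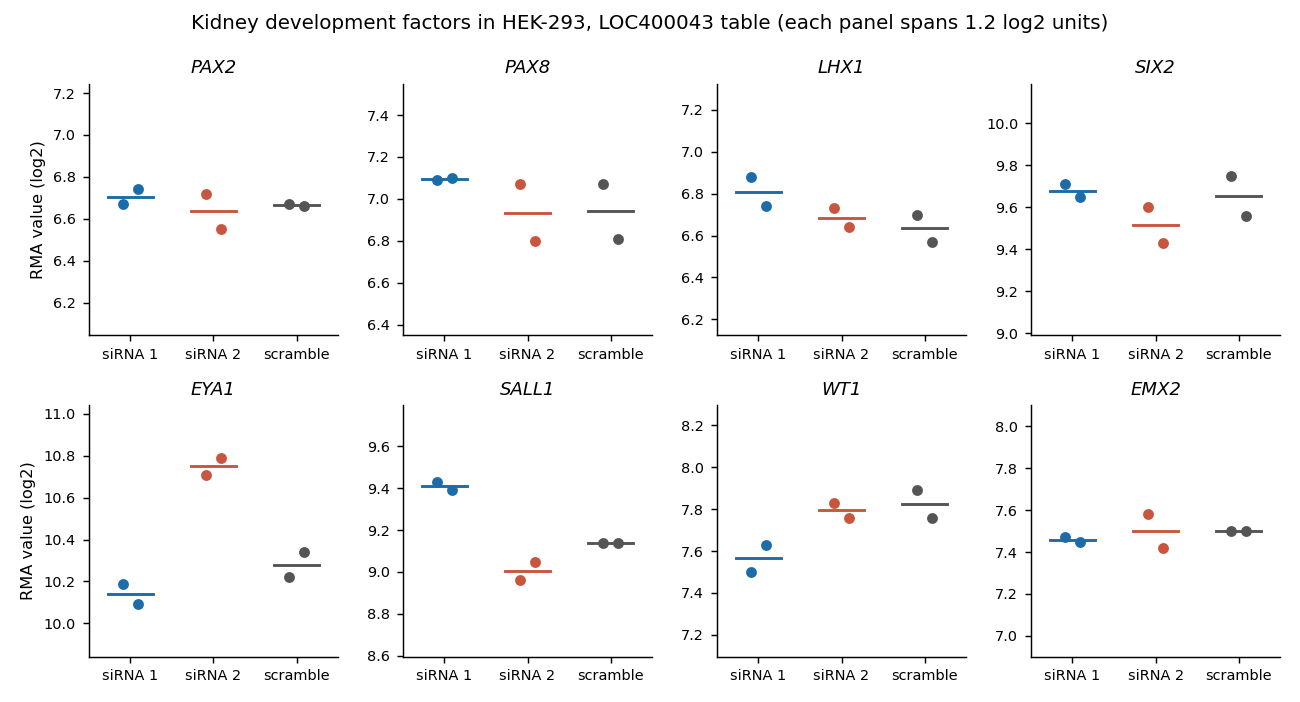
RMA value (log2) of each of the 8 genes on each of the 6 arrays of the LOC400043 table, by group (siRNA 1, siRNA 2, scramble). Points are arrays, horizontal lines are group means, and each panel spans the same height in log2. The EYA1 arrays of siRNA 2 (10.71 and 10.79) and the SALL1 arrays of siRNA 1 (9.43 and 9.39) stand above the other groups of their panel.

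The probe set of EYA1 (8151310, 29 probes) lies on the minus strand of chromosome 8 between 72109668 and 72274467. Its values were 10.19 and 10.09 with LOC400043 siRNA 1, 10.71 and 10.79 with siRNA 2, and 10.22 and 10.34 with scramble. The siRNA 2 arrays lay above all 4 others, and the siRNA 1 arrays below both scramble arrays. The means were 10.14 ± 0.07 with siRNA 1, 10.75 ± 0.05 with siRNA 2 and 10.28 ± 0.08 with scramble (SD, n = 2 each). With siRNA 2 EYA1 rose by 0.47 (log2, SE 0.08, 95% interval 0.29 to 0.65, limma adjusted p = 0.00685), a difference that 8.83% of all genes reached or passed in size. With siRNA 1 it stood at -0.14 (SE 0.08, interval -0.32 to 0.04, adjusted p = 0.291). Without replicate 2 of siRNA 2 the rise was 0.43 with an adjusted p of 0.054, and it passed the test in the 5 other fits that left out an array. For the 2 LINC00324 siRNAs the same gene stood at -0.15 and -0.09 in the other table.

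The probe set of SALL1 (8001387, 25 probes) lies on the minus strand of chromosome 16 between 51170329 and 51185152. Its values were 9.43 and 9.39 with LOC400043 siRNA 1, 8.96 and 9.05 with siRNA 2, and 9.14 and 9.14 with scramble. The 3 groups did not overlap, with siRNA 1 highest and siRNA 2 lowest. The means were 9.41 ± 0.03 with siRNA 1, 9.0 ± 0.06 with siRNA 2 and 9.14 ± 0.00 with scramble (SD, n = 2 each). SALL1 rose with siRNA 1 by 0.27 (log2, SE 0.07, 95% interval 0.11 to 0.43, limma adjusted p = 0.0455), while with siRNA 2 it stood at -0.13 (SE 0.07, interval -0.29 to 0.02, adjusted p = 0.212). The rise passed the test only narrowly: it kept its size (0.25 to 0.29) when any 1 of the 6 arrays was left out, but passed in none of these 6 fits, with adjusted p between 0.0741 and 0.243. SALL1 had the smallest residual SD of the 8 genes in both tables (0.05 and 0.04), and 16.8% of all genes differed from scramble by as much with siRNA 1. For the 2 LINC00324 siRNAs it stood at 0.15 and 0.04.

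The other progenitor factor, SIX2, had values of 9.71 and 9.65 with LOC400043 siRNA 1, 9.60 and 9.43 with siRNA 2, and 9.75 and 9.56 with scramble. The siRNA 1 arrays lay inside the scramble range and the siRNA 2 arrays overlapped with it, with differences of 0.02 (log2, SE 0.09) and -0.14 (SE 0.09, limma adjusted p = 0.348). EYA1 encodes a partner of SIX2, and only EYA1 of the pair was called. Whether their responses differed was not tested.

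PAX2 had values of 6.67 and 6.74 with LOC400043 siRNA 1, 6.72 and 6.55 with siRNA 2, and 6.67 and 6.66 with scramble. Its differences from scramble, 0.05 and -0.02 (log2), had intervals of -0.14 to 0.23 and -0.21 to 0.17, the siRNA 1 arrays lying at or just above the scramble arrays and the siRNA 2 arrays on either side of them. PAX8 had 7.09 and 7.10 with siRNA 1, 7.07 and 6.80 with siRNA 2, and 7.07 and 6.81 with scramble. Its difference with siRNA 1 was 0.15 (SE 0.12, interval -0.13 to 0.44), and the siRNA 2 arrays nearly coincided with the scramble arrays. LHX1 had 6.88 and 6.74 with siRNA 1, 6.73 and 6.64 with siRNA 2, and 6.70 and 6.57 with scramble. Its siRNA 1 arrays lay above both scramble arrays, by 0.17 on average (SE 0.08, limma adjusted p = 0.240).

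WT1 had values of 7.50 and 7.63 with LOC400043 siRNA 1, 7.83 and 7.76 with siRNA 2, and 7.89 and 7.76 with scramble. The siRNA 1 arrays lay below all 4 others, and the other 2 groups overlapped. The difference of siRNA 1 from scramble was -0.26 (log2, SE 0.08, 95% interval -0.45 to -0.07) with a limma p of 0.0159, which did not pass the adjusted threshold (adjusted p = 0.0919). EMX2 had 7.47 and 7.45 with siRNA 1, 7.58 and 7.42 with siRNA 2, and 7.50 and 7.50 with scramble. The intervals of its differences lay between -0.22 and 0.18 (log2). The difference between siRNAs of different lncRNAs was not tested, because the 2 tables are on separate scales.

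**Figure D3:**
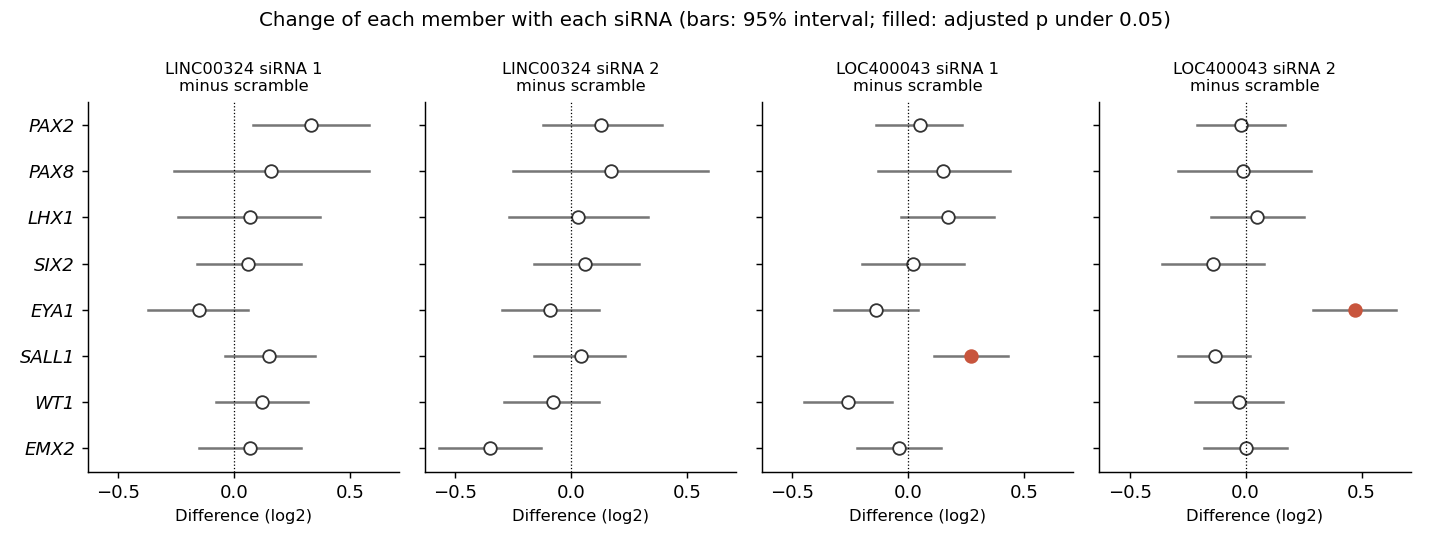
Difference from scramble (log2, horizontal axis) of each of the 8 genes with each of the 4 siRNAs. Points are limma estimates from 2 arrays a group, bars are 95% intervals, and filled points passed the test (adjusted p under 0.05): SALL1 with LOC400043 siRNA 1 (0.27) and EYA1 with LOC400043 siRNA 2 (0.47).

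In all, 4 of the 8 genes (PAX2, PAX8, LHX1, SALL1) had both LOC400043 siRNA 1 arrays above both scramble arrays, against 28.2% of all genes, and 3 (EYA1, WT1, EMX2) had them below, against 26.8%. With siRNA 2, 1 gene (EYA1) lay above, against 26.0% of all genes, and 1 (SALL1) below, against 30.9%. The median size of the difference was 0.148 (log2) over the 8 genes with siRNA 1, against 0.123 over all genes. With siRNA 2 it was 0.037, against 0.137, so 7 of the 8 genes differed from scramble by at most 0.14 with the siRNA that moved the most genes of the table. For the mean of both siRNAs minus scramble 0 of the 8 genes were called (limma), against 17.5% of all genes, and 1 (EYA1) had an unadjusted p under 0.05.

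When LOC400043 siRNA 1 was set directly against siRNA 2, EYA1 was lower by -0.61 (log2, SE 0.08, 95% interval -0.79 to -0.43, limma adjusted p = 0.0033), or 1.53-fold, and SALL1 was higher by 0.41 (SE 0.07, interval 0.25 to 0.57, adjusted p = 0.00833), or 1.33-fold. The test called 9.63% of all genes higher and 7.5% lower. EYA1 passed it in each of the 6 fits that left out an array. SALL1 passed in 3, and not without replicate 1 of siRNA 1 (0.39, adjusted p = 0.0785), replicate 2 of siRNA 1 (0.43, adjusted p = 0.0585) or replicate 1 of siRNA 2 (0.36, adjusted p = 0.0656). WT1 was the third gene with an unadjusted p under 0.05, as had 29.7% of all genes, at -0.23 (SE 0.08, adjusted p = 0.106). Of the 8 genes, 4 (PAX8, LHX1, SIX2, SALL1) had both siRNA 1 arrays above both siRNA 2 arrays, against 33.7% of all genes, and 2 (EYA1, WT1) had them below, against 25.6%.

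Some markers of other cell types, most of them neuronal, also differed between the same groups. Of 14 listed neuronal and chromaffin genes 13 were measured, and their summed signal was 4523 to 4689 with LOC400043 siRNA 1, 3006 to 3065 with siRNA 2 and 4214 to 4250 with scramble. Of these 13 genes, 4 were called higher and 1 lower with siRNA 1, and 0 higher and 2 lower with siRNA 2. Of all 18480 genes, 749 (4.05%) were called higher and 1379 lower with siRNA 1. With siRNA 2, 1459 (7.9%) were called higher and 2557 lower. Whether the list differed from these shares was not tested. NEFM, a neurofilament subunit, fell by 0.47 with siRNA 1 (limma adjusted p = 0.0075, up to 0.076 without either siRNA 1 array) and by 1.31 with siRNA 2 (log2, SE 0.06 each, adjusted p = 0.000275). GAP43, a growth cone protein, rose with siRNA 1 by 0.84 (SE 0.09, adjusted p = 0.00355) and stood at 0.07 with siRNA 2 (adjusted p = 0.653). All GAP43 values in the LOC400043 table lay below the 95th percentile of the hair shaft genes (8.09). The sum was thus high where SALL1 was high and low where EYA1 was high, and its part in those results was not tested. Genes of high signal weigh most in such a sum. Among them NEFM had 8.88 and 8.91 with siRNA 2, against 10.18 and 10.24 with scramble. The median difference of the 13 genes from scramble was 0.261 (log2) with siRNA 1, against 0.025 over all genes. With siRNA 2 it was 0.067, against 0.007, so the list did not fall as a whole. The summed signal of 8 fibroblast genes was 587 to 609, 547 to 576 and 520 to 618 in the same order of groups, so both siRNAs lay within the scramble range and siRNA 1 lay above siRNA 2. Of these genes LUM, an extracellular matrix proteoglycan, fell with siRNA 2 by 0.40 (SE 0.07, adjusted p = 0.00822, up to 0.0564 without either siRNA 2 array) and was higher with siRNA 1 than with siRNA 2 by 0.51 (adjusted p = 0.00417). That of 8 blood cell genes was 500 to 518, 493 to 541 and 475 to 535, which overlapped between all groups. Of these CD68, a macrophage marker, fell with siRNA 1 by 0.31 (SE 0.07, adjusted p = 0.0347, and 0.0628 to 0.226 without 1 array) and stood at -0.37 between the siRNAs (adjusted p = 0.0135, up to 0.11 without any 1 siRNA array). LUM had a mean under 5 (log2) in that table, below the median of the hair shaft genes (6.5), so its differences lie between values near background. LUM and CD68 are named as the called genes of their lists, chosen after their values were seen, and their part in the results of EYA1 and SALL1 was not tested. That of 7 adrenal cortex genes was 301 to 312, 309 to 312 and 263 to 295, higher on each siRNA array than on the scramble arrays, with none of the genes called. Of the neuronal genes 3 of 13 had a scramble mean above the 95th percentile of the hair shaft genes, and of the fibroblast, blood and adrenal genes 0.

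The genes whose values followed EYA1 and SALL1 most closely were sought over the 6 arrays of each table, among genes whose group means spanned at least 0.5 (log2). In the LOC400043 table PELI1, a ubiquitin ligase, and LRIF1, a nuclear receptor interacting factor, followed EYA1 (Pearson r of 0.995 each, of 2218 genes searched). NELL2, a secreted neural protein, and SCAMP5, a secretory carrier membrane protein, followed SALL1 (r of 0.994 and 0.993, of 2219 genes). An r above 0.95 was reached by 141 and 94 genes, since 6 arrays in 3 groups share much of any difference between the groups. In the LINC00324 table the closest genes were others: ARID4A and ATRX, chromatin proteins both, for EYA1 (0.987 and 0.964, of 1059 genes) and HERC6 and PTGER2, a HECT-domain protein and a prostaglandin receptor, for SALL1 (0.993 and 0.985). These correlations are descriptions over arrays and carry no test.

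The nearest measured genes on either side of EYA1, XKR9 at 461 kb and MSC at 479 kb, were not called with either LOC400043 siRNA (differences of 0.01 to 0.20, log2). XKR9 had a mean under 5 (log2) in that table, below the median of the hair shaft genes (6.5). Its values therefore do not show whether it changed. On one side of SALL1, TOX3 at 1287 kb was not called either (0.02 and 0.10). CYLD, a deubiquitinase gene 334 kb from SALL1 on the other side, rose with both LOC400043 siRNAs, by 0.47 (SE 0.08, limma adjusted p = 0.0135) and 0.44 (SE 0.08, adjusted p = 0.00941). With siRNA 1 the CYLD call was lost without either siRNA 1 array (adjusted p up to 0.114), and with siRNA 2 without replicate 2 (adjusted p = 0.0672). Between the siRNAs CYLD stood at 0.03 (SE 0.08, adjusted p = 0.845), against the 0.41 of SALL1.

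The wider kidney programme was read from lists of paralogs and cofactors of the 8 genes and of genes for stages and compartments of the developing kidney, 150 genes in all, of which 147 were measured. With LINC00324 siRNA 1, 1 of the 147 rose and 0 fell (0.68%), against 0.498% of all genes called, and with siRNA 2, 0 rose and 2 fell (1.36%), against 1.85%. LOC400043 siRNA 1 raised 5 and lowered 11 (10.9%, against 11.5%), and siRNA 2 raised 11 and lowered 16 (18.4%, against 21.7%). These shares are near the background in each of the 4 comparisons. The median differences over the 147 genes, between -0.036 and 0.091 (log2), are set against medians of all genes between 0.007 and 0.025. Between the 2 LINC00324 siRNAs 13 of the 147 genes were higher with siRNA 1 and 1 lower (9.52%, against 3.07%), beside 422 higher and 145 lower among all genes. With arrays centred on their medians these counts were 10 and 1, beside 283 and 212. Without either siRNA 2 array 0 of the 147 genes and 0 of all genes were called, without either scramble array 1 was higher and 0 lower, beside 55 and 26, and without replicate 2 of siRNA 1 4 were higher and 1 lower, beside 180 and 165. Between the 2 LOC400043 siRNAs 14 were higher and 17 lower (21.1%, against 17.1%). Centring turned the 11 rises and 16 falls with LOC400043 siRNA 2 into 16 and 11, beside 2190 and 1897 among all genes.

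**Figure D4:**
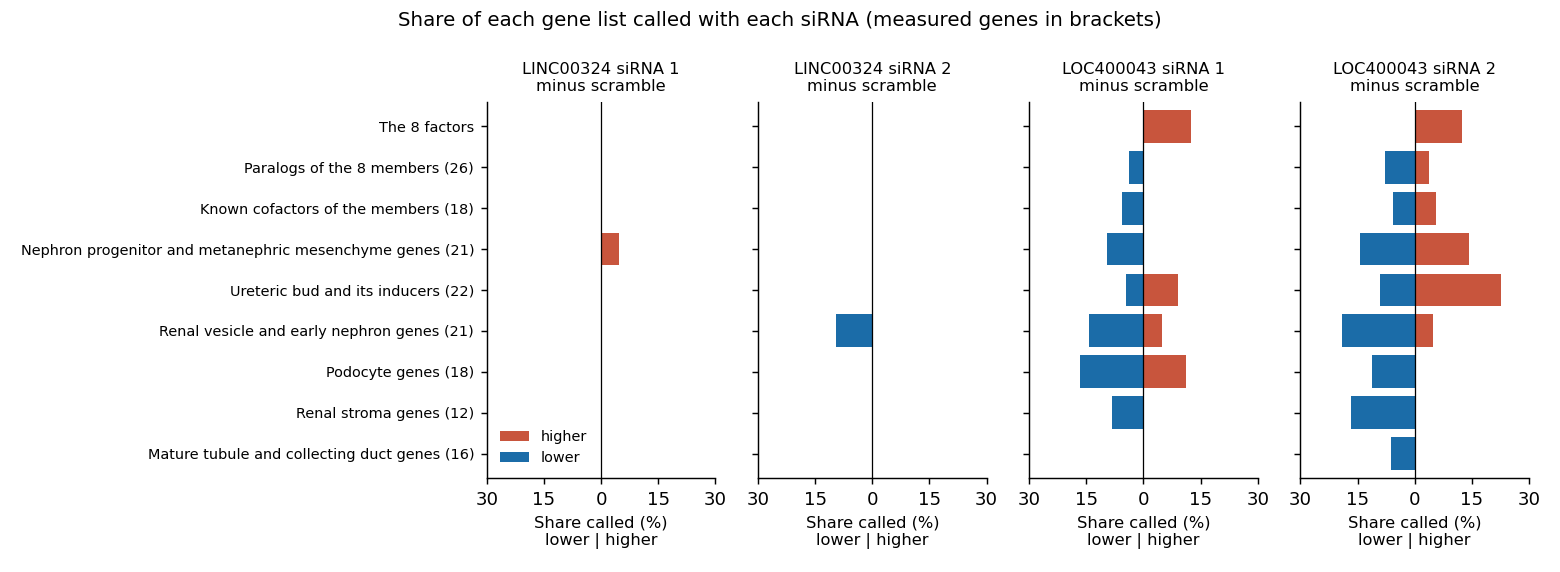
Share (%) of the measured genes of each list that passed the test with each siRNA against scramble, higher to the right and lower to the left of 0, with the number measured in brackets. The ureteric bud list reached 5 of 22 genes higher with LOC400043 siRNA 2, where 7.9% of all genes were called higher. No list had more than 2 called genes with a LINC00324 siRNA, where 0.498% (siRNA 1) and 1.85% (siRNA 2) of all genes were called.

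Among paralogs, LHX2, a LIM homeobox paralog of LHX1, stood at 0.25 and 0.23 (log2) with the 2 LOC400043 siRNAs (limma adjusted p = 0.059 and 0.0516) and passed only as their mean, at 0.24 (adjusted p = 0.0329, and 0.0636 to 0.115 without 1 array). All LHX2 values in that table lay below the 95th percentile of the hair shaft genes (8.09). Of 26 measured paralogs 0 were called higher and 1 lower with LOC400043 siRNA 1, and 1 higher and 2 lower with siRNA 2. With either LINC00324 siRNA 0 were called. For this list and those that follow, the background with LOC400043 siRNA 1 was 749 genes higher and 1379 lower of 18480. With LOC400043 siRNA 2 it was 1459 higher and 2557 lower. No list was tested against these counts.

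Among 18 cofactors, MTA1, a NuRD subunit, fell with both LOC400043 siRNAs, by 0.42 (log2, SE 0.07, limma adjusted p = 0.0159) and 0.58 (SE 0.07, adjusted p = 0.00279). The siRNA 1 call was lost without either siRNA 1 array (adjusted p up to 0.117). BASP1, a corepressor of WT1, rose with siRNA 2 by 0.42 (SE 0.08, adjusted p = 0.0135), a call lost without either siRNA 2 array (up to 0.0887). BASP1 was also higher with LINC00324 siRNA 1 than with siRNA 2, by 0.55 (adjusted p = 0.0343), a call lost without any 1 array (0.0519 to 0.344). No other cofactor was called against scramble with any of the 4 siRNAs.

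Of 21 nephron progenitor and mesenchyme genes 0 rose and 2 fell with LOC400043 siRNA 1, and 3 rose and 3 fell with siRNA 2. In either direction, 11.5% of all genes were called with siRNA 1 and 21.7% with siRNA 2. CITED1, a marker of the least committed progenitors, fell with siRNA 2 by 0.90 (log2, SE 0.11, limma adjusted p = 0.0025) and stood at -0.11 with siRNA 1. HOXD11, a patterning factor of the metanephric mesenchyme, rose with siRNA 2 by 0.42 (SE 0.06, adjusted p = 0.00554). ITGA8, the integrin of the mesenchyme that meets the ureteric bud, rose with LINC00324 siRNA 1 by 1.22 (SE 0.14, adjusted p = 0.0334), the only call of that siRNA among the 147 genes. Its values there were 8.0 and 8.2, against 6.98 and 6.9 with siRNA 2 and 6.68 and 7.07 with scramble. All ITGA8 values lay below the 95th percentile of the hair shaft genes, in this table (8.25) and in the LOC400043 table (8.09). The rise passed the test in 1 of the 6 fits without 1 array (adjusted p 0.0492 to 0.16). ITGA8 also rose with LOC400043 siRNA 2, by 0.56 (SE 0.14, adjusted p = 0.0289), a call lost without scramble replicate 1 or either siRNA 2 array (up to 0.156).

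Of 22 genes of the ureteric bud and its inducers 2 rose and 1 fell with LOC400043 siRNA 1, and 5 rose and 2 fell with siRNA 2. Among all genes 4.05% were called higher with siRNA 1 and 7.9% with siRNA 2. Whether the list differed from these shares was not tested. ETV5, an ETS factor downstream of RET signalling in the bud tip, had values of 7.33 and 7.87 with siRNA 2, against 5.56 and 5.41 with siRNA 1 and 5.23 and 5.46 with scramble. It rose with siRNA 2 by 2.26 (log2, SE 0.17, limma adjusted p = 0.000747). Its scramble and siRNA 1 values lay below the median of the hair shaft genes in that table (6.5) and its siRNA 2 values below their 95th percentile (8.09), so no fold is given. SLIT2, a guidance ligand that restricts bud outgrowth, rose with siRNA 2 by 0.67 (SE 0.07, adjusted p = 0.00139), and BMP7, a survival factor of the progenitors, fell by 0.74 (SE 0.06, adjusted p = 0.000922). ETV5, SLIT2 and BMP7 were not called with siRNA 1 (0.14, 0.05 and -0.24), and each differed between the siRNAs in the direct test (-2.12, -0.62 and 0.49, adjusted p of 0.00353 or below).

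Of 21 genes of the renal vesicle and early nephron 1 rose and 3 fell with LOC400043 siRNA 1, 1 rose and 4 fell with siRNA 2, and 0 rose and 2 fell with LINC00324 siRNA 2. Among all 18480 genes 749 were called higher and 1379 lower with LOC400043 siRNA 1. For LOC400043 siRNA 2 these counts were 1459 and 2557, and for LINC00324 siRNA 2 they were 93 and 248. Whether the list differed from these shares was not tested. HEY1, a target of Notch signalling, fell with both LOC400043 siRNAs, by 0.94 (log2, SE 0.07, limma adjusted p = 0.0014) and 0.65 (SE 0.07, adjusted p = 0.00148). The receptor NOTCH2, needed for the proximal nephron, rose with both, by 0.48 (SE 0.06, adjusted p = 0.00602) and 0.41 (SE 0.06, adjusted p = 0.00526), although the siRNA 1 call was lost without either siRNA 1 array (up to 0.0681). The receptor NOTCH1 fell with LOC400043 siRNA 2 by 0.64 (SE 0.10, adjusted p = 0.00552) and with LINC00324 siRNA 2 by 0.61 (SE 0.07, adjusted p = 0.0234). The Notch ligand DLL1 fell with the same siRNAs, by 0.41 (SE 0.07, adjusted p = 0.00864) and 0.43 (SE 0.07, adjusted p = 0.0492). With LINC00324 siRNA 1 and LOC400043 siRNA 1, not called, NOTCH1 stood at -0.43 and -0.30 and DLL1 at 0.13 and -0.19. With the 2 LINC00324 siRNAs, also not called, HEY1 stood at -0.31 and -0.42 and NOTCH2 at -0.27 and 0.20. All NOTCH1 and DLL1 values lay below the 95th percentile of the hair shaft genes (8.25 in the LINC00324 table, 8.09 in the LOC400043 table). The LINC00324 calls of NOTCH1 and DLL1 were lost without either scramble array or either siRNA 2 array (adjusted p up to 0.286 and 0.461), that of DLL1 also with arrays centred on their medians (-0.36, adjusted p = 0.0713) and with a replicate block (adjusted p = 0.0728). The LOC400043 call of DLL1 was lost without replicate 2 of siRNA 2 (0.0644). Both lncRNA comparisons share the scramble arrays, so these falls are not independent of each other.

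Of 18 podocyte genes 2 rose and 3 fell with LOC400043 siRNA 1, and 0 rose and 2 fell with siRNA 2. In either direction, 11.5% of all genes were called with siRNA 1 and 21.7% with siRNA 2. Whether the list differed from these shares was not tested. PODXL, the sialomucin podocalyxin and a known WT1 target, fell by 0.50 (log2, SE 0.07, limma adjusted p = 0.00702) and 0.53 (SE 0.07, adjusted p = 0.00289). WT1 stood at -0.26 with LOC400043 siRNA 1 and at -0.03 with siRNA 2 and was not called with either. Whether WT1 had a part in the fall of PODXL was not tested. With the LINC00324 siRNAs, set against the same scramble arrays, PODXL stood at -0.50 (SE 0.09, adjusted p = 0.102) and -0.55 (SE 0.09, adjusted p = 0.0501). KIRREL1, a slit diaphragm protein, fell by 0.44 (SE 0.06, adjusted p = 0.00909) and 0.27 (SE 0.06, adjusted p = 0.0242), and the vascular growth factor VEGFA fell with siRNA 1 by 0.42 (SE 0.06, adjusted p = 0.0101). With the LINC00324 siRNAs KIRREL1 stood at -0.20 (SE 0.11, adjusted p = 0.495) and -0.59 (SE 0.11, adjusted p = 0.0548). The KIRREL1 values with LOC400043 siRNA 1 (8.02 and 7.95) lay below the 95th percentile of the hair shaft genes (8.09). Those with LOC400043 siRNA 2 (8.13 and 8.16) and scramble (8.42 and 8.42) lay above. The LOC400043 siRNA 1 calls of PODXL, KIRREL1 and VEGFA were lost without either siRNA 1 array (adjusted p up to 0.0977), and the LOC400043 siRNA 2 call of KIRREL1 without any 1 array (0.0511 to 0.124) with a second quantile normalization (-0.18, adjusted p = 0.073) and with arrays centred on their medians (-0.21, adjusted p = 0.0634).

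Among 12 renal stroma genes, ALDH1A2, the retinoic acid synthesising enzyme, fell by 0.61 (log2, SE 0.07, limma adjusted p = 0.00445) and 0.28 (SE 0.07, adjusted p = 0.0315) with the LOC400043 siRNAs. Its siRNA 1 values (7.80 and 7.88) lay below the 95th percentile of the hair shaft genes (8.09). Its siRNA 2 values (8.20 and 8.13) and scramble values (8.40 and 8.49) lay above. The siRNA 1 call was lost without replicate 1 of siRNA 1 (0.0508), and the siRNA 2 call in 5 of 6 fits without 1 array (up to 0.161) with a second quantile normalization (-0.19, adjusted p = 0.0806) and with centred arrays (-0.21, adjusted p = 0.0854). The list held 0 rises and 1 fall with siRNA 1 and 0 rises and 2 falls with siRNA 2. Of all genes 11.5% and 21.7% were called with these siRNAs, in either direction. Of 16 genes of mature tubules and collecting ducts 1 was called with any siRNA against scramble: LRP2, the endocytic receptor megalin of the proximal tubule, which fell with LOC400043 siRNA 2 by 0.87 (SE 0.07, adjusted p = 0.000719). LRP2 stood at 0.15 with siRNA 1 (adjusted p = 0.204). Its siRNA 2 values (7.42 and 7.49) lay below the 95th percentile of the hair shaft genes (8.09), and its scramble values (8.33 and 8.33) above.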

How the data were processed

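Per the labels' protocols, HEK-293 cells were transfected with RNAiMax, and total RNA was extracted with Trizol and hybridised to Affymetrix HuGene-1_0-st arrays. The authors deposited RMA log2 values and, per gene, a log2 difference of the 4 siRNA arrays from scramble with a p-value. RMA and limma are named in the submitters' processing notes. For tool versions, build and annotation, the sources used here state nothing. The authors' differences and p-values were not used. Each table was fitted alone (R 4.3.3, limma 3.58.1, moderated two-sided tests of contrasts), with 3 group means and 3 residual degrees of freedom, Benjamini-Hochberg adjustment over 18480 genes and no filter. The fit was tested on simulated data. Symbols were updated from RefSeq names. The 8 genes and the 12 lists (195 entries) were chosen with earlier results of these data known. Named list genes are up to 3 with the smallest p per list among those called for the mean of both siRNAs, and up to 2 with the largest called change per siRNA over all lists. One gene that this rule names is not reported here. Genes like EYA1 and SALL1 (the 2 with the highest r) and their nearest measured neighbours are named too. Alternatives were a replicate block, leaving out genes with a mean under 5, an intensity trend, a second quantile normalization, centring on array medians and leaving out each array. Summed signals add values after log2 was undone.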

Additional observations from a re-analysis of the deposited data

Results flagged for a closer look

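EYA1 and SALL1 differed between the 2 siRNAs directed against LOC400043 by the test of the difference itself. EYA1 stood at -0.61 (log2, SE 0.08, siRNA 1 minus siRNA 2, limma adjusted p = 0.0033) and SALL1 at 0.41 (SE 0.07, adjusted p = 0.00833). EYA1 was above scramble with siRNA 2 on 2 of 2 arrays and below it with siRNA 1 on 2 of 2 arrays, and SALL1 the other way round. The test of siRNA 1 against siRNA 2 called 17.1% of all genes of that table, in either direction and wherever scramble lay. The share of genes on opposite sides of scramble with the 2 siRNAs was not counted.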

How the results depend on the processing

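For the 8 genes, the 6 comparisons of single siRNAs gave 48 differences, which were recomputed under 11 alternatives each. Of the 528 values, 482 kept their direction and their side of the threshold, 10 kept the direction and lost the call, 1 gained a call, and 35 in 17 differences turned in sign, none of them called. The number of the 8 genes called with LOC400043 siRNA 1 was 1, and 0 in every fit without 1 array. With LOC400043 siRNA 2 it was 1, and 0 to 1 without 1 array. For LOC400043 siRNA 1 minus siRNA 2 it was 2, and 1 to 2 without 1 array. For LINC00324 siRNA 1 minus siRNA 2 it was 0, and 0 to 1 without 1 array. For the mean of both LOC400043 siRNAs minus scramble an intensity trend called 1 of the 8 genes in place of 0. The cause of these shifts was not tested, beyond the fewer arrays in the fits without 1 array, where a group with 1 array is assumed to vary like the others.

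Sign changes were found for small differences. With arrays centred on medians the LINC00324 siRNA 1 minus siRNA 2 difference was -0.02 for LHX1 and -0.06 for SIX2, and with LOC400043 siRNA 2 it was 0.05 for PAX2, 0.06 for PAX8, 0.04 for WT1 and 0.07 for EMX2. A second quantile normalization gave -0.02 for LHX1 in the first of these comparisons and 0.01 for PAX8, 0.06 for WT1 and 0.06 for EMX2 in the second, -0.03 for MSC there and -0.06 for TOX3 with LOC400043 siRNA 1. Without 1 array the following ranges crossed 0. LINC00324 siRNA 1 minus scramble ran from -0.02 to 0.35 for PAX8, from -0.10 to 0.24 for LHX1, from -0.04 to 0.16 for SIX2 and from -0.02 to 0.16 for EMX2. LINC00324 siRNA 2 minus scramble ran from -0.03 to 0.09 for LHX1 and from -0.04 to 0.16 for SIX2. LINC00324 siRNA 1 minus siRNA 2 ran from -0.20 to 0.17 for PAX8, from -0.13 to 0.21 for LHX1 and from -0.03 to 0.03 for SIX2. LOC400043 siRNA 1 minus scramble ran from -0.07 to 0.11 for SIX2 and from -0.07 to 0.11 for TOX3. LOC400043 siRNA 2 minus scramble ran from -0.11 to 0.06 for PAX2, from -0.14 to 0.13 for PAX8, from -0.02 to 0.11 for LHX1, from -0.09 to 0.04 for WT1, from -0.08 to 0.08 for EMX2 and from -0.12 to 0.14 for MSC. LOC400043 siRNA 1 minus siRNA 2 ran from -0.02 to 0.16 for PAX2 and from -0.12 to 0.04 for EMX2.

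Labels give the groups the same replicate numbers. In the LINC00324 table the differences between replicates correlated across genes at 0.60 between scramble and siRNA 1. They correlated at -0.18 between scramble and siRNA 2 and at -0.38 between the siRNAs. In the LOC400043 table the values were 0.23, 0.37 and 0.09 in the same order. Size and sign thus varied between pairs of groups. Whether arrays of the same number were handled together is not given in the labels and was not tested. A replicate block left the number of the 8 genes called at 1 with each LOC400043 siRNA, at 2 between them and at 0 in the LINC00324 comparisons. Counts over all genes moved more than those of the 8 genes. An intensity trend called 931, 1500 and 1859 genes for LINC00324 siRNA 1, LINC00324 siRNA 2 and their difference, against 92, 341 and 567, and 3479 for LOC400043 siRNA 1, against 2128. A second quantile normalization called 340, 781 and 1150 for the 3 LINC00324 comparisons. Without 1 array these counts ran from 0 to 70, 0 to 748 and 0 to 621 for LINC00324. They ran from 257 to 2310 for LOC400043 siRNA 1, from 1789 to 3916 for siRNA 2 and from 989 to 3680 between them. Centring on medians moved the median difference of all genes by under 0.1, but turned 1459 genes higher and 2557 lower with LOC400043 siRNA 2 into 2190 and 1897, and 93 and 248 with LINC00324 siRNA 2 into 128 and 178. It turned 422 and 145 between the LINC00324 siRNAs into 283 and 212, and 1779 and 1386 between the LOC400043 siRNAs into 1386 and 1673. The deposited value table of all arrays held the same siRNA values and 1 of the 2 sets of scramble values, so it gave no further alternative and no direct comparison of the 2 lncRNAs, and neither was run.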
